A study of Caenorhabditis elegans with 12 samples.

Results

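The entries described here are transposons and other repeats of C. elegans that the deposited small RNA tables list under RepBase, a catalogue of repeat families. They were chosen by name. Every RepBase entry was taken unless its name held the letters cer, which mark the Cer retrotransposons. This gave 115 entries of 75227 features in the tables, and of 166 RepBase entries. Of the 51 entries left out, 11 were repeats whose names hold those letters without naming a numbered Cer element.

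The libraries came from whole adult animals grown at 20 °C. In the depletion experiment, control animals carried wrdSi51 on chromosome II, a transgene in which mex-5p drives TIR1, joined through F2A to mTagBFP2::AID*::NLS and followed by the 3'UTR of tbb-2, and depleted animals carried in addition GFP::tev::aid::attf-6 on chromosome I. Both strains were moved to plates with 4 mM auxin at the L4 larval stage, so the controls shared the TIR1 transgene and the auxin. TIR1 directs proteins with an auxin-inducible degron to degradation, and it was driven here by the mex-5 promoter, which the study describes as germline-specific. ATTF-6, an AT-hook protein, was also seen by the study in somatic cells, where this transgene is not meant to act. In the deletion experiment, all animals carried attf-6::3xflag on chromosome I and received no treatment. The ΔPeak1 strain lacked an ATTF-6 binding site at chrIV:13709294-13709476 and the ΔPeak2 strain one at chrIV:14387943-14388536, in coordinates of the labels, which name no build. RNA treated with the polyphosphatase PIR-1, which makes triphosphorylated small RNAs clonable, gave 2 libraries for each of 5 groups. CIP-TAP treatment is a phosphatase step followed by a pyrophosphatase step, meant to select capped small RNAs. It gave 1 library each for control and depleted animals. The amount of ATTF-6 protein cannot be read from small RNA tables, so the depletion itself was not checked here.

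Transposons are DNA segments that can move to new places in a genome. DNA transposons such as the Tc elements are cut out and inserted by a transposase, whereas retrotransposons are copied through RNA. In the C. elegans germ line, small RNAs made by RNA-dependent RNA polymerases on transposon transcripts are bound by Argonaute proteins of the WAGO group, and the mutator proteins are needed for their production. Animals that lack mutator proteins mobilise Tc elements. The piRNA pathway, with the Argonaute PRG-1, is another source of such silencing, and animals without PRG-1 are known for mobilising Tc3.

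The value used for an entry is its deposited count divided by 1 constant per library and multiplied by a fixed factor, here called the normalised count. It counts reads per entry and not per base, and the lengths of the entries were not used here, so an order of entries by level is partly an order of lengths and copy numbers. Summed counts over all features ran from 15454564 to 31931330 in the PIR-1 libraries and with CIP-TAP were 11832193 (control) and 6352629 (depleted). The entries took 0.738 to 1.35% of these sums in the PIR-1 libraries, and 2.23% (control) and 2.43% (depleted) with CIP-TAP. Several other classes moved with depletion. The summed level of 7 members found of the miR-35 family, miRNAs of the germ line and embryo, was 99948 and 96713 in control animals and 16155 and 10904 in depleted ones. Type I piRNAs changed by -4.87 in the log2 ratio of group means, siRNA targets named CSR by -1.75 and those named WAGO by -0.37. A glial miRNA, miR-228-5p, went from 4459 and 4657 to 6251 and 6944. The study reported atrophy of the germ line after this depletion, and a modest fall in the median of germline transcripts. Fewer germ cells and less small RNA per germ cell cannot be told apart in whole animals.

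Small RNAs at these entries were concentrated on a few elements. Of the 115 entries, 12 reached a mean level of 1000 normalised counts across the 10 PIR-1 libraries, and 25 reached 100. Another 61 lay between 0.5 and 100, and 29 were under 0.5. LTR2_CE had no count in any PIR-1 library. The 12 most abundant entries held 87.5% of the summed level, and 14 entries were needed to pass 90%. In all 10 PIR-1 libraries 77 entries had at least 1 count.

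NeSL-1, a non-LTR retrotransposon that inserts into spliced leader genes, was highest, with a mean of 7519 over the 10 PIR-1 libraries and a range from 4267 to 9321. It was followed by MARINER2_CE, a mariner DNA transposon, with a mean of 5176, and by Chapaev-2_CE, of the Chapaev group of DNA transposons, with 3625. The next levels were close to each other. TC4 had a mean of 3583 (2194 to 4530), TC1 3319 (2187 to 3992) and TC5 3282 (2211 to 3976), so the ranges of these 3 DNA transposons overlapped nearly in full. MARINCE1, a further mariner name, averaged 2960 and Tc3 2885. RTE-1 and LINE2A_CE, both non-LTR retrotransposons, averaged 2598 and 2448. TURMOIL2 and TURMOIL1, DNA transposons related to Harbinger, closed the 12 with 1598 and 1165. Of the other Tc entries, TC2 averaged 332, TC1A 1.23, TC5A 0.717, TC5B 0.673 and TC6 0.525. TC5A, TC5B and TC6 are at or near the level of 3 counts in a PIR-1 library, which is 0.382 to 0.751. TC1A had 7 to 18 counts in the PIR-1 libraries of the depletion experiment and 0 to 4 in those of the deletion experiment.

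**Figure D1:**
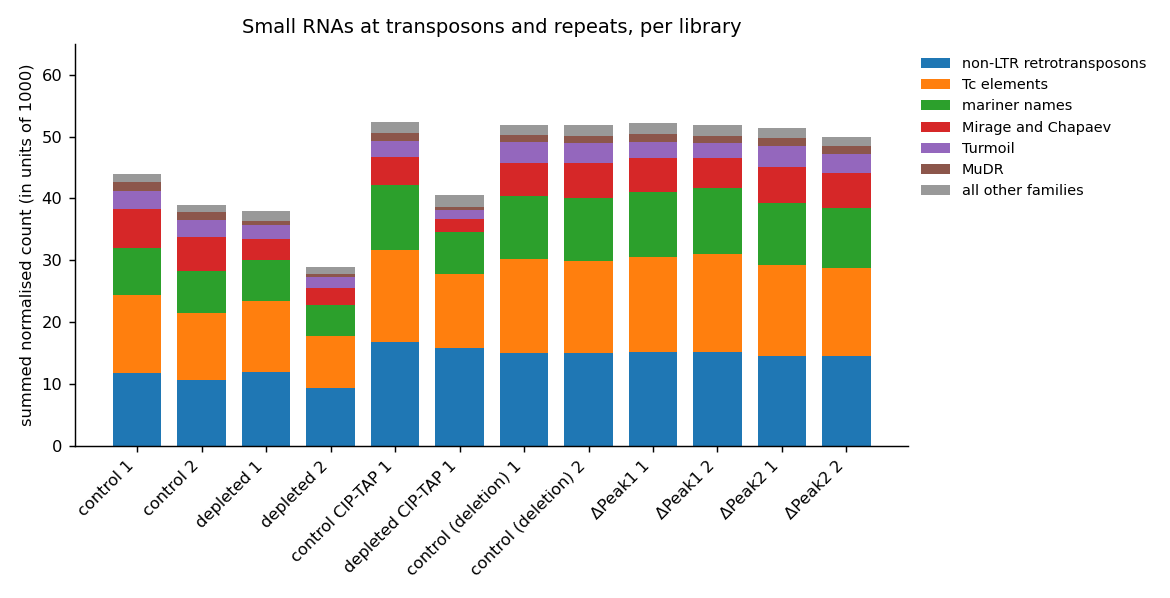
Summed normalised count (in units of 1000, axis from 0) of the 115 entries in each of the 12 libraries, stacked by family, with 6 families shown and the rest in grey. The non-LTR retrotransposons and Tc elements form the largest blocks in every library, and the totals of the 6 deletion-experiment libraries lie between 50003 and 52216.

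The question of the depletion experiment was what small RNAs depend on ATTF-6. At transposons and repeats the summed level was 43902 and 38956 in control animals and 37902 and 28917 in depleted ones. The groups did not overlap, but the higher depleted library came within a short distance of the lower control. The means were 41429 ± 3497 (SD, n = 2) and 33410 ± 6353 (SD, n = 2), a 1.24-fold lower level after depletion. An exact two-sided permutation test gave p = 0.333, the smallest value that 2 libraries against 2 allow, so this test could not place the difference past a threshold.

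Single entries were tested with edgeR's quasi-likelihood test, with p-values adjusted by Benjamini-Hochberg over all 33715 features tested and a threshold of 0.05. Of the 115 entries, 81 reached a mean level of 0.5 across the 4 libraries and were tested, and 34 did not. Among them 23 were lower and 11 higher after depletion, and 47 passed in neither direction. Over all features 54.6% were lower and 12.7% higher, 67.3% in all, and among features classed as siRNA targets 56.0% and 10.8%. The share of higher entries was thus near the background, and the share of lower ones below it. The median log2 fold change of the 81 entries was -0.19, beside -1.39 for all features. The count of lower entries fell to 14 without control replicate 1 and was 16 to 26 without each other library.

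The directions depend on the scaling. With TMM, which assumes that most features do not change, the median of all features moved from -1.39 to -0.28. Under it the log2 ratio of the summed level was 0.82 in place of -0.31, and 5 entries were lower and 44 higher with a median of 0.93, while 38.3% of all features were lower and 30.2% higher. Scaled to summed miRNA counts, 27 were lower and 10 higher with a median of -0.39. Values below are on the main scaling, and a change there can be read against the all-feature median of -1.39.

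**Figure D2:**
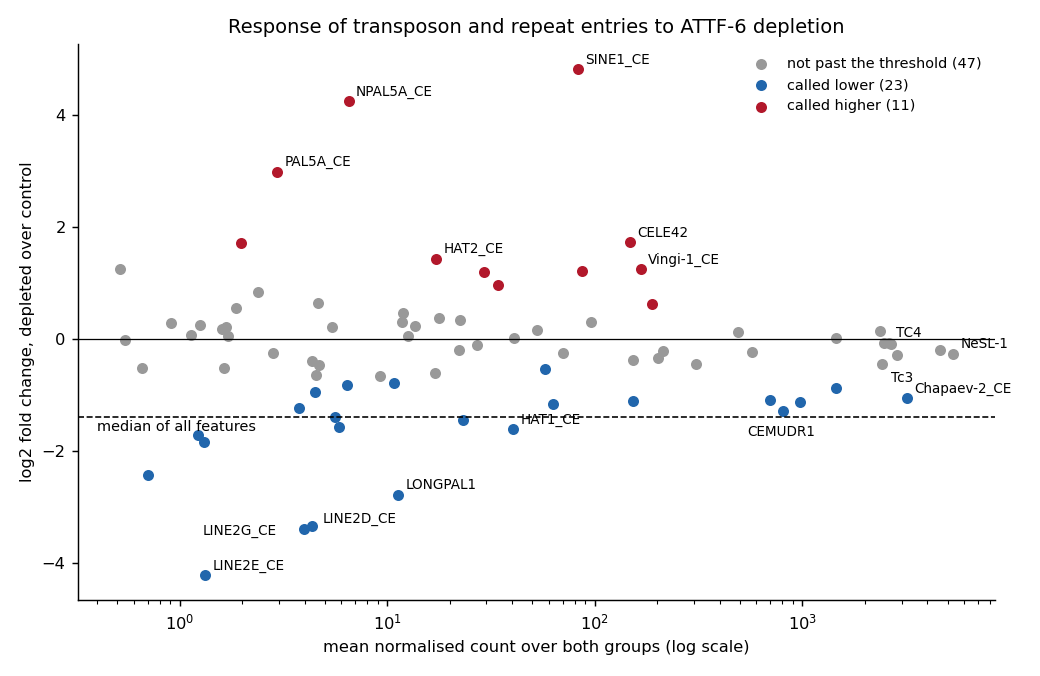
Log2 fold change (depleted over control, PIR-1 libraries) against the mean normalised count (log axis) for the 81 tested entries, coloured by edgeR call on the main scaling, with the all-feature median of -1.39 dashed. Most of the abundant entries sit near 0 and above the dashed line, and with TMM scaling 8 of the 23 blue points have log2 fold changes above 0.

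The Tc elements had no member past the threshold in the main fit. Of 9 Tc entries 6 were tested, with log2 fold changes from -0.46 to 0.83. Tc3 read 3056 and 2526 in control animals and 2346 and 1723 in depleted ones, and its groups did not overlap. Its log2 fold change was -0.46 ± 0.26 (SE, n = 2 per group) with an adjusted p of 0.0679. TC1, the most studied transposon of C. elegans, had 3393 and 2873 against 2948 and 2187. These groups overlapped, and the log2 fold change was -0.29 ± 0.25 (SE) with an adjusted p of 0.261. TC4 and TC5 were flatter still, with log2 fold changes of -0.07 and -0.09. TC4 read 2862 and 2492 in control animals and 2898 and 2194 in depleted ones, and TC5 read 2909 and 2602 against 2969 and 2211. In both elements depleted replicate 1 was the highest of the 4 libraries and depleted replicate 2 the lowest. TC2 went from 362 and 348 to 294 and 226, with a log2 fold change of -0.45 and an adjusted p of 0.0897. With miRNA scaling Tc3 and TC2 were called lower, and with TMM all 6 tested Tc entries were called higher. Tc3 and TC2 were also called lower on the main scaling when the replicate number was fitted as a block. The labels do not say that equal replicate numbers belong together.

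Several other abundant entries likewise did not pass. NeSL-1 had 6082 and 5562 in control animals and 5429 and 4267 in depleted ones, with a log2 fold change of -0.26 ± 0.19 (SE) and an adjusted p of 0.296. MARINER2_CE had 5166 and 4603 against 4928 and 3610, at -0.19. For LINE2A_CE the log2 fold change was -0.08 and for RTE-1, at 2401 and 2126 against 2841 and 2125, it was 0.13. TURMOIL2 was at 0.01. The depleted libraries of RTE-1 thus spanned its controls. With TMM scaling each of these 5 was called higher, NeSL-1 at 0.86 and RTE-1 at 1.26.

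Another 6 DNA transposons were called lower, with log2 fold changes from -1.29 to -0.88. Each fell less than the all-feature median of -1.39. Chapaev-2_CE had 4548 and 4077 in control animals and 2240 and 1878 in depleted ones, so that both depleted libraries were far under both controls. Its level was 2.09-fold lower, with a log2 fold change of -1.07 ± 0.15 (SE) and an adjusted p of 9.6e-06. Chapaev-1_CE, of the same group, went from 1008 and 900 to 490 and 404 (-1.09). TURMOIL1 went from 1428 and 1239 to 668 and 545, with a log2 fold change of -1.14 and an adjusted p of 4.59e-06. Its namesake TURMOIL2 showed no such fall, although both had similar control levels. MARINCE1 went from 1983 and 1768 to 1153 and 888 (-0.88, adjusted p = 0.000378). The MuDR entries CEMUDR1 and CEMUDR2, members of a DNA transposon group also known from plants, were at -1.29 and -1.11 and were named after their values had been seen. With TMM scaling none of these 6 was called, and the log2 fold changes of Chapaev-2_CE, Chapaev-1_CE, MARINCE1 and CEMUDR2 were above 0, at 0.07, 0.04, 0.25 and 0.02.

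The largest falls were in scarcer entries. LONGPAL1, one of the palindromic repeats, had 21.6 and 18.0 in control animals and 4.13 and 1.45 in depleted ones. It was 7.1-fold lower, with a log2 fold change of -2.79 ± 0.64 (SE) and an adjusted p of 1.29e-13. HAT1_CE, of the hAT DNA transposons, went from 67.8 and 54.2 to 22.1 and 17.7 (-1.62, adjusted p = 8.84e-09). HELITRONY1A_CE, a relative of the rolling-circle Helitrons, went from 32.5 and 35.1 to 11.4 and 13.3 (-1.45). MSAT1_CE, a minisatellite, and CELE2 were at -1.57 and -1.40 on control means under 10. Among these 5 only LONGPAL1 was called lower with each of the 3 scalings and with DESeq2, and HAT1_CE with the 3 scalings alone.

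A group of LINE2 elements, non-LTR retrotransposons, was also called, and was named after its values had been seen. LINE2D_CE had 9.80 and 6.07 against 1.24 and 0.242, and LINE2G_CE 7.38 and 7.19 against 0.826 and 0.484, with log2 fold changes of -3.35 and -3.41. These 2 stayed lower with TMM, miRNA scaling and DESeq2. LINE2E_CE went from 2.16 and 2.92 to 0.207 and 0, which is at least 3.78-fold lower against a floor of 3 counts per library. LINE2F_CE and LINE2B_CE were also called lower on the main scaling, at 5.35 and 5.17 against 2.27 and 2.18 and at 1.78 and 2.02 against 0.620 and 0.484, with adjusted p of 0.0109 and 0.0423. With TMM neither was called. LINE2B_CE had 3 and 2 counts in the depleted libraries, at that floor. With the replicate number fitted as a block it was not called (edgeR adjusted p = 0.060). The more abundant LINE2 members were not called lower. LINE2A_CE is given above, LINE2C1_CE read 244 and 214 against 229 and 165, and LINE2C_CE read 155 and 143 against 268 and 191. LINE2C_CE was called higher at 0.62 (adjusted p = 0.0176), with DESeq2 and TMM as well but not with miRNA scaling.

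The rises were led by SINE1_CE, a short interspersed element. It had 6.49 and 4.49 in control animals and 173 and 146 in depleted ones. Both depleted libraries were far above both controls. The level was 29.0-fold higher, with a log2 fold change of 4.81 ± 0.27 (SE) and an adjusted p of 1.64e-51. In the 6 libraries of the deletion experiment it lay between 1.68 and 5.90. NPAL5A_CE, a palindromic repeat, had 1.02 and 0 in control animals and 13.4 and 11.6 in depleted ones, on 8 and 0 counts against 65 and 48. Its fitted log2 fold change of 4.25 (adjusted p = 4.73e-18) rests on those 8 control counts, and was 8.81 without control replicate 1 and 3.59 without control replicate 2. PAL5A_CE, whose name it shares in part, had 0.764 and 0.449 against 4.54 and 6.05. CELE42 went from 71.4 and 65.4 to 245 and 207, a 3.30-fold rise with a log2 fold change of 1.72 ± 0.14 (SE). Vingi-1_CE, a non-LTR retrotransposon, went from 109 and 89.4 to 259 and 210, a 2.37-fold rise with a log2 fold change of 1.24 ± 0.21 (SE). HAT2_CE went from 9.80 and 8.76 to 28.5 and 21.8 (1.43, adjusted p = 4.12e-06), opposite in sign to HAT1_CE of the same group. CELE14B, CELE6, HELITRONY3_CE and TIR21T5A_CE rose as well, with log2 fold changes of 1.21, 1.71, 1.19 and 0.96. CELE6 rested on 6 and 5 counts in control animals and 16 and 11 in depleted ones. Of the 11 higher entries 10, all but LINE2C_CE, were called higher with TMM, miRNA scaling and DESeq2 too. Without each library in turn, log2 fold changes were 1.39 to 1.94 for CELE6, 0.57 to 1.25 for TIR21T5A_CE and 0.36 to 0.85 for LINE2C_CE. A somatic miRNA (miR-228-5p, above) also rose, and the part of cell composition in these rises was not tested.

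**Figure D3:**
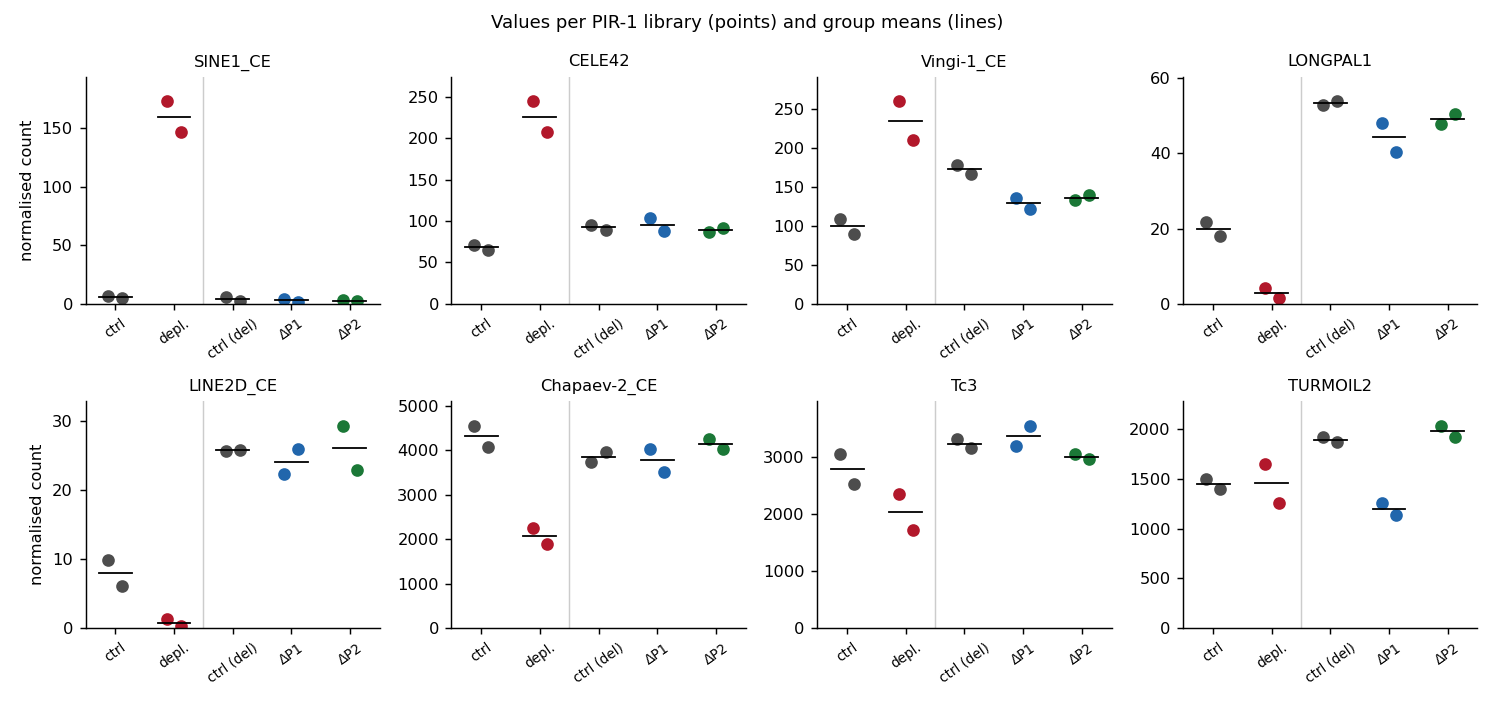
Normalised counts (linear axes from 0, one scale per panel) of 8 entries in the 10 PIR-1 libraries, as points, with group means as lines; ctrl and depl. are the depletion experiment, the others the deletion experiment. SINE1_CE, CELE42 and Vingi-1_CE are high in both depleted libraries, LONGPAL1, LINE2D_CE and Chapaev-2_CE are low there (with TMM scaling Chapaev-2_CE is at 0.07 in log2 fold change), and TURMOIL2 is low in both ΔPeak1 libraries.

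By family, entries called lower on the main scaling were spread over retrotransposons, DNA transposons and unclassified repeats. Beside the counts below, 54.6% of all features were lower and 12.7% higher, or 38.3% and 30.2% with TMM. The families are small, and none was tested as a set. The non-LTR retrotransposons summed to 11772 and 10623 in control animals and 11968 and 9248 in depleted ones, with 5 of 13 tested lower and 3 higher (3 and 8 with TMM). The Tc elements summed to 12586 and 10844 against 11457 and 8545. Mirage and Chapaev together went from 6201 and 5561 to 3325 and 2731, with 2 of 3 lower, although the median of these 3 was 0.07 with TMM scaling against -1.07 on the main one. For the MuDR pair the sums were 1428 and 1270 against 629 and 500, with both lower. The mariner names had 2 of 4 lower, the palindromic elements 3 of 14 lower and 2 higher, and the terminal and inverted repeats 2 of 8 lower and 1 higher. Of the Helitron and NDNAX entries 1 of 10 was lower and 1 higher. The CELE elements, 10 tested, split into 3 lower and 3 higher, and their sum had a mean of 247 ± 16.9 (SD, n = 2) in controls and 427 ± 70.3 (SD, n = 2) after depletion, which included the rises of CELE42 and CELE14B.

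Small RNAs at the genes of the silencing pathway itself, taken from a list of 46 names, were much lower. Of 42 matched and tested, 39 were lower after depletion and 0 higher, beside 56.0% and 10.8% of all siRNA targets. Their median log2 fold change was -2.07, beside -0.19 for the transposon and repeat entries. The summed levels at siRNA targets named CSR and WAGO changed by -1.75 and -0.37 in the log2 ratio of group means. Whether the fall is particular to the listed genes was not tested. The 3 that did not pass were alg-3, alg-4 and ekl-1. The gene of the RNA-binding protein RDE-4 had 229 and 201 in control animals and 34.1 and 20.8 in depleted ones. For csr-1, which encodes an Argonaute of germline genes, the values were 657 and 585 against 117 and 75.2. The gene of PRG-1 had 923 and 849 against 245 and 187, and that of the mutator foci protein MUT-16 182 and 169 against 72.7 and 56.4. These values are siRNAs made against the genes and not the levels of their messages or proteins. With TMM scaling 33 were lower and 3 higher, with a median of -0.94, beside 38.3% and 30.2% of all features.

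In the CIP-TAP libraries, which were not replicated, the entries summed to 52373 without depletion and to 40528 with it, a 1.29-fold lower level (95% interval 1.28 to 1.30, counting error only). Scaled to summed counts instead, the log2 ratio of the same sums changed sign, from -0.37 to 0.12. Over both libraries 44 entries had at least 100 counts. Of these 7 were at least 2-fold higher and 9 at least 2-fold lower in the depleted library, while 9.48% of the 12653 features with that many counts were higher and 56.8% lower. The median log2 ratio was -0.24, beside -1.41 for those features. Without piRNAs and their capped precursors, 9512 of the features remained, with a median of -0.96. Of them 4656 were at least 2-fold lower and 1115 at least 2-fold higher. Scaled to summed counts, 8 entries were higher and 3 lower, beside 17.5% and 48.5% of the 12653 features. The median of the entries was then 0.25. No test was made, since the libraries stand for themselves only.

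Among the entries with 100 counts SINE1_CE rose most, from 37.9 to 661, which is 17.4-fold (95% interval 15.0 to 20.3). CELE42 went from 114 to 487, or 4.27-fold (3.88 to 4.69), and TIR21T5A_CE from 19.4 to 57.0, or 2.93-fold (2.30 to 3.76). The largest falls at this depth were those of MARINER5_CE, from 19.8 to 2.89 on 100 and 11 counts, of TIR9TA1A_CE, from 24.4 to 6.05, and of Chapaev-1_CE, from 784 to 234. With summed counts these 3 were still lower, with log2 ratios of -2.29, -1.52 and -1.25. Scarcer entries were not ranked, although some had a count near 0 in 1 library, such as HELITRON2_CE with 46 and 2 counts and HAT2_CE with 0 and 36. The Tc elements with 100 counts kept within 2-fold. TC4 went from 5299 to 4369, TC5 from 2922 to 2959, TC1 from 2798 to 1995, Tc3 from 3565 to 2417 and TC2 from 362 to 233. Read by the calls of the PIR-1 libraries, 10 of the 23 lower entries had 100 counts. All 10 had a ratio under 1, with 8 at least 2-fold lower, beside 56.8% of features with that many counts. With summed counts LONGPAL3 among them was above 0, at a log2 ratio of 0.25. Of the 11 higher entries 7 had 100 counts, 6 with a ratio above 1. At least 2-fold higher were 5 of the 7, beside 9.48% of features with that many counts. HELITRONY3_CE had a ratio under 1, at 32.7 and 31.0. Of 27 entries with 100 counts and no PIR-1 call, 19 also had a ratio under 1 and 8 a ratio above it. The shares of all features under and above 1 were not computed, and their median log2 ratio was -1.41. TIR9TA1A_CE differed between the library types, since in the PIR-1 libraries it had 13.5 and 11.2 against 17.1 and 8.47.

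Some entries took a different place with CIP-TAP than with PIR-1, as the control values set side by side show. The CIP-TAP control still held 346383 at siRNA targets named CSR, beside 345609 and 303374 in the PIR-1 controls. At targets named WAGO it held 526018, beside 420412 and 372887, whereas type I piRNAs stood at 5865, beside 326582 and 389609. How much of the signal at the entries came from capped small RNAs was not tested. CELE45 had 96.3 and 77.3 in the PIR-1 controls and 539 in the CIP-TAP control, and SINE1_CE 6.49 and 4.49 against 37.9. HAT4_CE, at 155 and 190 against 22.8, and LONGPAL1, at 21.6 and 18.0 against 0.397, went the other way. Among the 12 most abundant entries some had like levels with both treatments, such as NeSL-1 at 6082 and 5562 against 7243 and TC5 at 2909 and 2602 against 2922, and others were higher with CIP-TAP. Of these, MARINCE1 read 1983 and 1768 against 4528, TC4 2862 and 2492 against 5299, and RTE-1 2401 and 2126 against 4494. These levels are on the main scaling. As a share of summed counts, the 115 entries took 1.08 and 0.962% in the PIR-1 controls and 2.23% in the CIP-TAP control. Which entries had like levels thus depends on the scaling. Of the 115 entries 29 had no count in either CIP-TAP library. HAT4_CE, LONGPAL1 and CELE45 were chosen after their values were seen, and with 1 CIP-TAP library no test was made.

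**Figure D4:**
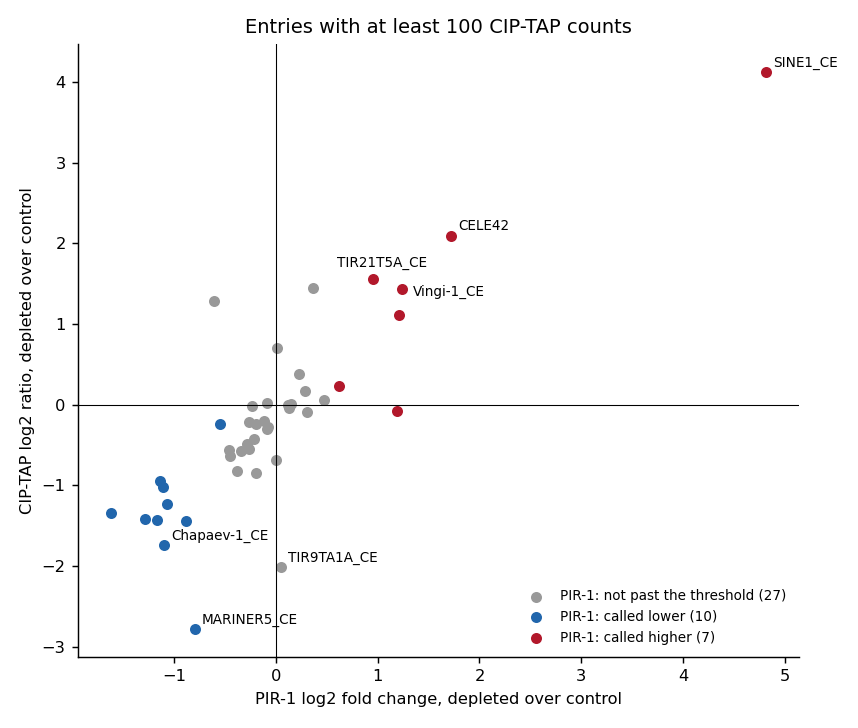
Log2 ratio of depleted over control in the CIP-TAP libraries (1 per group) against the PIR-1 log2 fold change (2 libraries per group) for the 44 entries with at least 100 CIP-TAP counts, coloured by PIR-1 call. All 10 blue points lie below 0 on the vertical axis and 6 of the 7 red ones above it on the scaling used here. The median of all 12653 features with that many counts was -1.41 on this axis. With summed counts as the scale every point moves up by the same amount and only 3 entries remain at least 2-fold lower.

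The question of the deletion experiment was whether loss of a single ATTF-6 binding site alters small RNAs. The entries summed to 51939 and 51874 in control animals, to 52216 and 51863 with ΔPeak1, and to 51345 and 50003 with ΔPeak2. The ΔPeak1 libraries overlapped the controls (log2 ratio 0.00, exact permutation test p = 1). Both ΔPeak2 libraries were under the controls by a small margin, 1.02-fold in the means (log2 ratio -0.03, but 0.083 with TMM), with p = 0.333 in the same exact test, the smallest it can give.

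Of the 85 entries tested in the deletion fit (30 were too low), 1 was called in ΔPeak1, and it was lower. Over all 31462 features 0.0858% were called lower and 0.0636% higher. The entry was TURMOIL2, with 1924 and 1873 in control animals, 1256 and 1141 in ΔPeak1 and 2038 and 1928 in ΔPeak2. Both ΔPeak1 libraries were under all 4 others, and the ΔPeak2 libraries were both above the controls. The level in ΔPeak1 was 1.58-fold lower, with a log2 fold change of -0.66 ± 0.07 (SE, n = 2 per group) and an adjusted p of 0.0354 from edgeR. Set directly against ΔPeak2, a comparison added after the data had been seen, the log2 fold change was -0.73 ± 0.08 (SE) with an adjusted p of 0.0152, where 0.0667% of features were called lower and 0.197% in either direction. In the depletion experiment the same element read 1504 and 1400 against 1654 and 1264. The size of the ΔPeak1 difference held, from -0.74 to -0.60 over 12 alternatives, but its adjusted p passed in 6 of them. It was 0.824 and 0.695 without control replicates 1 and 2, 0.258 and 0.242 without ΔPeak2 replicates 1 and 2, and 0.0874 with miRNA scaling. TURMOIL1 showed nothing of this kind, at 1341 and 1334 in control animals and 1269 and 1238 in ΔPeak1.

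MIRAGE1, a DNA transposon named after its values had been seen, had 652 and 643 in control animals, 443 and 449 in ΔPeak1 and 623 and 604 in ΔPeak2. Its log2 fold change in ΔPeak1 was -0.54 ± 0.01 (SE), with an adjusted p of 0.114, and it passed in 1 of the 12 alternatives. Like TURMOIL2, it was lowest in both ΔPeak1 libraries of all 6. The entries carry no genome positions in the tables, so the distance of any copy from the deleted site was not analysed here. Besides these 2, 6 entries had an unadjusted p under 0.05 in ΔPeak1, in all 9.41% of those tested beside 5.18% of all features, among them Vingi-1_CE with 178 and 166 in control animals, 136 and 121 in ΔPeak1 and 133 and 140 in ΔPeak2.

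In ΔPeak2 no entry was called by edgeR, beside 0.308% of all features, and 8 (9.41%) had an unadjusted p under 0.05, beside 9.46% of all features. DESeq2 called 0 as well. HELITRON1_CE, a rolling-circle DNA transposon and the lowest of these by p, had 65.3 and 61.6 in control animals, 45.8 and 44.4 in ΔPeak1 and 41.0 and 32.9 in ΔPeak2, with an adjusted p of 0.109 in ΔPeak2. Both strains lay under the controls in this entry, and they share those 2 control libraries. The median log2 fold change of the entries was 0.05 in ΔPeak1, beside -0.03 for all features, and -0.03 in ΔPeak2, beside -0.14. With TMM the all-feature median in ΔPeak2 was -0.02 and with miRNA scaling -0.32, and that of the entries 0.09 and -0.22. The Tc elements stayed close to the controls. Tc3 had 3305 and 3150 in control animals, 3189 and 3546 in ΔPeak1 and 3044 and 2960 in ΔPeak2, and TC1 had 3436 and 3538, 3710 and 3992, and 3734 and 3384. TC2 was lower in all 4 deletion libraries, with 414 and 383 in control animals, 332 and 317 in ΔPeak1 and 340 and 307 in ΔPeak2, but its adjusted p was 0.912 and 0.433. Of the 42 genes of the silencing pathway 0 were called in either strain by edgeR.

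**Figure D5:**
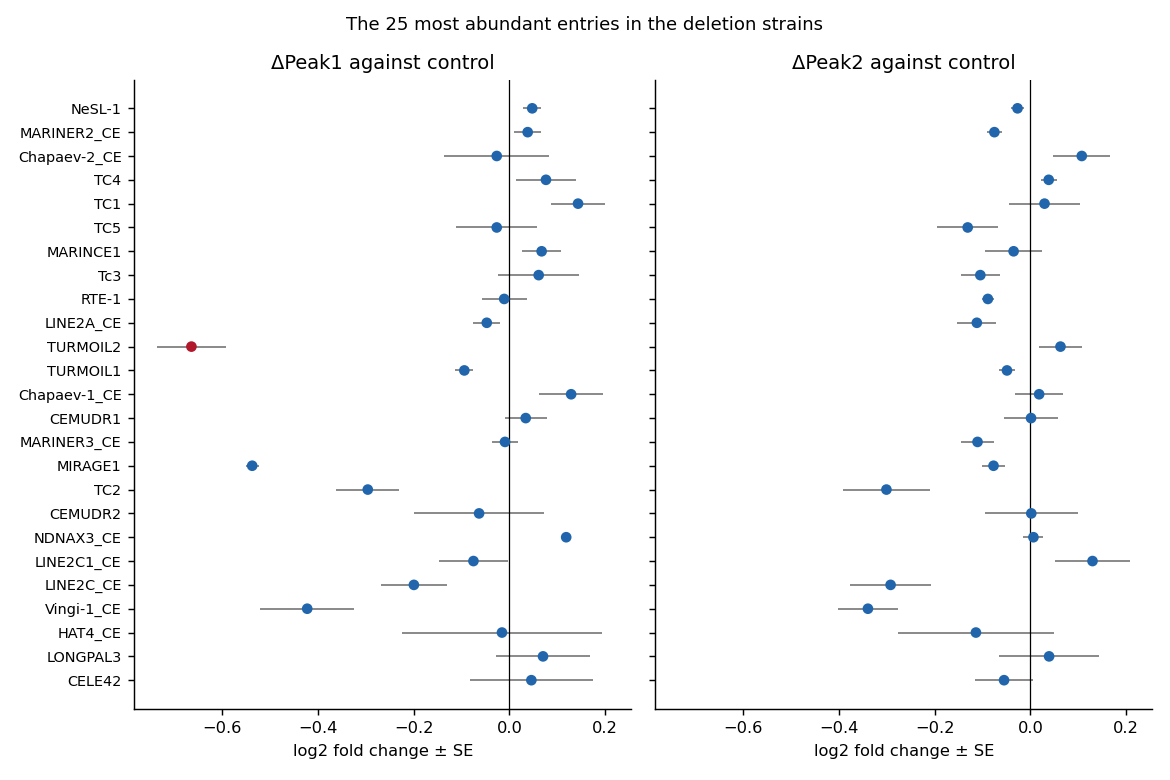
Log2 fold change ± SE (bars, from the spread of 2 libraries per group) of the 25 most abundant entries in ΔPeak1 (left) and ΔPeak2 (right) against the shared controls; red marks the only edgeR call. TURMOIL2 and MIRAGE1 stand at -0.66 and -0.54 in ΔPeak1 and near 0 in ΔPeak2, while most others lie within 0.2 of 0.

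The control strains of both experiments differed in genotype and in auxin, and their values are set side by side with no test. In all, 61 entries had a mean that reached 5 in at least 1 of the control groups. Of these, 7 were at least 2-fold higher in the attf-6::3xflag controls and 0 at least 2-fold lower, with a median ratio of 1.24. An entry could pass through 1 group alone. PAL3A_CE did so in the attf-6::3xflag controls, with a mean of 18.3 beside 4.95 in the TIR1 controls. These counts therefore lean towards such differences, and no conclusion is drawn from them. The shares over all features were not set beside them. Whether the difference is particular to these entries was therefore not tested. MARINCE1 had 1983 and 1768 in the TIR1 controls and 3864 and 4012 in the attf-6::3xflag controls. LONGPAL1 had 21.6 and 18.0 against 52.9 and 53.9, and LINE2D_CE 9.80 and 6.07 against 25.7 and 25.8. These 2 low entries, which fell on depletion, thus also differed by 2.69-fold and 3.25-fold between untreated and auxin-treated controls. NeSL-1 had 6082 and 5562 against 8854 and 9009. Strain, treatment and experiment cannot be told apart in this comparison.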

How the data were processed

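The authors trimmed reads with Trim Galore, aligned them with Bowtie without mismatches to WormBase release WS279 and to exon junctions, discarded reads with very many places, and assigned the rest to features with BEDTools. Aligner versions, and how a read with several copies or a strand was counted at a RepBase entry, are not given in the sources used here. At repeats this sets what a count means, since a read may match several copies or entries. The authors deposited estimated counts, which were whole numbers at all 115 entries, and a normalised signal, the count divided by 1 constant per library (3804460 to 7857706) and multiplied by a fixed factor.

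Rounded counts entered edgeR's quasi-likelihood test (version 4.0.16, R 4.3.3) with that constant as library size. Features averaging under 0.5 normalised counts across the fitted libraries were left out. The depletion fit held 4 libraries and the deletion fit 6. P-values were adjusted over all kept features, with calls at an adjusted p under 0.05. SEs come from the spread between libraries of log2 normalised counts with 0.5 added. Sums were compared by exact permutation tests. Alternatives were TMM, miRNA scaling, DESeq2 1.42.0, no filter, a filter of 5, the replicate number as a block, and leaving out each library. In simulated data with 1 fixed spread, 200 features with a mean of at least 5 were changed 4-fold, equally up and down. Of these, 197 were recovered in the depletion design and 197 in the deletion design, with 8 and 11 false calls. The simulation held no broad shift and changed no scarcer features, so it does not bear on the scaling or on calls under that level. Pandas 2.3.3, numpy 2.4.6, scipy 1.17.1 and matplotlib 3.10.9 under Python 3.11.15 made the summaries.

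Members, families, the pathway list and the miRNA markers were chosen with earlier results of these data known. The text names every Tc entry, the 12 most abundant entries, the 5 largest falls and 5 largest rises among calls after depletion with a mean of at least 5 and no overlap, calls in the deletion strains, and the 3 highest and 3 lowest CIP-TAP ratios. Entries named for the MuDR, LINE2, CELE and Mirage groups, and others outside this rule, were chosen after their values were seen. NPAL and LONGPAL entries were joined to the palindromic family, and SINE1_CE to the non-LTR family, with values known. Libraries of a group are separate samples per the labels, which do not say whether they were separate cultures, so p-values measure the spread between these libraries. Floors of 3 counts and the 95% intervals (exact binomial on both libraries' counts) cover counting error only, since PCR copies were not removed. The direct comparison of ΔPeak1 with ΔPeak2, and TMM and DESeq2 scaling of the summed levels, were added after seeing the data.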

Additional observations from a re-analysis of the deposited data

How the results depend on the processing

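The scaling mattered most. With TMM scaling 5 entries were lower and 44 higher after depletion, and with DESeq2 3 and 40, against 23 and 11. LONGPAL3 was called lower on the main scaling and higher with TMM. Of the other entries named above and called with either scaling, 16 changed sign with TMM: CEMUDR2 (0.016), Chapaev-1_CE (0.036), Chapaev-2_CE (0.065), MARINCE1 (0.25), MARINER5_CE (0.34), Tc3 (0.67), TC2 (0.68), HAT4_CE (0.74), TC1 (0.84), NeSL-1 (0.86), MIRAGE1 (0.89), LINE2C1_CE (0.91), MARINER2_CE (0.93), TC5 (1.04), LINE2A_CE (1.05) and TC4 (1.05). With DESeq2 13 did so: MARINCE1 (0.16), MARINER5_CE (0.28), Tc3 (0.58), TC2 (0.59), HAT4_CE (0.65), TC1 (0.75), NeSL-1 (0.78), MIRAGE1 (0.81), LINE2C1_CE (0.82), MARINER2_CE (0.84), TC5 (0.95), LINE2A_CE (0.96) and TC4 (0.97). These reversals follow the shift in the all-feature median given above. Without each library in turn 14 to 26 entries were lower and 9 to 12 higher. The replicate number as a block left 27 lower and 11 higher, and called Tc3 (-0.47, adjusted p = 0.00548) and TC2 (-0.46, adjusted p = 0.00738) lower. The block was no main fit, since deviations of same-numbered libraries correlated at 0.14 in the depletion experiment and between -0.05 and -0.01 in the other. In ΔPeak1 the count of calls was 0 with miRNA scaling and with the replicate block, 2 without the filter, and 0 to 1 without each library. In ΔPeak2 it was 1 with miRNA scaling, 2 without the filter, and 0 to 2 without each library. TURMOIL2 had an adjusted p of 0.122 with the block. The log2 ratio of the summed level in ΔPeak1 (0.00) was -0.0023 with miRNA scaling, 0.011 with summed counts, -0.0056 without NeSL-1, 0.046 with TMM and 0.042 with DESeq2 size factors. In ΔPeak2 (-0.03) it was -0.22 with miRNA scaling, 0.083 with TMM, 0.099 with DESeq2 size factors, and -0.054 to -0.016 without each library. In the CIP-TAP libraries (-0.37) it was 0.12 with summed counts, -1.13 with miRNA scaling and -0.40 without NeSL-1. The summed level after depletion (-0.31) was 0.82 with TMM and 0.73 with DESeq2 size factors, both chosen after seeing the data, and stayed below 0 with miRNA scaling, with summed counts and without NeSL-1, and at -0.52 to -0.13 without each library. Entries under about 1 normalised count rest on a handful of reads per library.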
